A study of Homo sapiens with 4 samples.

Results

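The cytosolic ribosomal protein genes encode the proteins of the ribosome that translates nuclear mRNAs. They were taken from a table of 33117 rows as every row whose symbol is RPL, RPLP or RPS with a number and an optional A, L or X, together with RPSA. This gave 81 genes, of which 49 belong to the large subunit and 32 to the small subunit. Total RNA had been sequenced from HT29, a human cell line established from a colorectal adenocarcinoma, kept in DMEM and 10% fetal calf serum. There were 2 libraries of cells treated with 100 µM fluorouracil (5FU) for 2 h, and 2 libraries of untreated control cells (Ctrl), with no vehicle named. Fluorouracil is a pyrimidine analogue used against colorectal cancer, whose metabolites inhibit thymidylate synthase and are built into RNA. Each library gave 1 value per gene in FPKM, in which fragment numbers are divided by transcript length and by library total. The labels do not say whether replicates came from separate cultures, so every p-value measures only the spread between these libraries.

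A ribosome holds 1 copy of nearly every ribosomal protein, joined to ribosomal RNA in a small subunit that reads the mRNA and a large subunit that forms peptide bonds. The acidic P proteins of the large subunit, which recruit translation factors, are the main exception and occur in more than a single copy. Ribosomal protein mRNAs are short, abundant and stable, and most begin with a C and a run of pyrimidines. This 5′ terminal oligopyrimidine (TOP) tract couples their translation to mTORC1, the nutrient-sensing kinase complex. Ribosomal proteins made without matching ribosomal RNA are degraded, and RPL5 and RPL11, bound to 5S ribosomal RNA, can instead inhibit the ubiquitin ligase MDM2. In colorectal cells fluorouracil is known to disturb ribosomal RNA maturation, which is why these genes are of interest beside the drug.

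The start sites below show that tract in members at different ends of the results. It is absent at the annotated first base of RPL17, RPS29 and RPS27L, a paralogue of RPS27. A tract that begins at any other base was not counted. Each line runs from 20 bases before to 10 bases from the RefSeq transcription start (GRCh38.p14), and capitals mark the pyrimidine run that begins with C at the first transcribed base.
RPS6 (chr9:19380227-19380256, minus strand): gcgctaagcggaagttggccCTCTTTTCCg
RPSA (chr3:39406700-39406729, plus strand): cgtcatttcctgccgcctgtCTTTTCCgtg
RPL13A (chr19:49487588-49487617, plus strand): ccctgcgacaaaacctcctcCTTTTCCaag
RPL22 (chr1:6199586-6199615, minus strand): ctgcgtagttcgctcacctcCCTTTCTaac
RPS27 (chr1:153990742-153990771, plus strand): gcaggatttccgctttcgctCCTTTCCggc
RPS24 (chr10:78033843-78033872, plus strand): ttggccggcgaatcgtggttCTCTTTTCCT
RPL28 (chr19:55385912-55385941, plus strand): tcgcctcgcccctcgccttcCTCTTTCCgt
RPS10 (chr6:34426060-34426089, minus strand): cagcaccgcgcatgctccttCCTTTCCagc
RPL36A (chrX:101390991-101391020, plus strand): ttccgtttgcctcgcggtttCTTTCTTTCC
RPL17 (chr18:49492456-49492485, minus strand): ctcttcctctttccctaagcagcctgaggt
RPS29 (chr14:49598701-49598730, minus strand): ttttcccccgagcgcgcagctggcagcggt
RPS27L (chr15:63157468-63157497, minus strand): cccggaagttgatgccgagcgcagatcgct
A C followed by at least 4 pyrimidines at an annotated start, read on the gene's own strand, occurred in 46 of the 64 members with a RefSeq window (71.9%). The share was 5.14% of all 27305 genes with such a window, and 7.70% of the 8755 of them that were tested here. The tract was found in 28 of 39 large subunit members and in 18 of 25 small subunit members, so both subunits shared it to a similar extent.

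The libraries were not alike. FPKM over all rows summed to 440558 in fluorouracil replicate 1 and 764861 in fluorouracil replicate 2, against 434628 and 427007 in the untreated libraries. Fragment numbers are unknown, so counting intervals could not be given. RNA18S5 and RNA28S5, ribosomal RNA rows, were listed at 298 and 413 FPKM in fluorouracil replicate 2 and at 0 in the other 3 libraries. The values of fluorouracil replicate 2 were also deposited with fewer digits than the others. The sources used here do not say whether that library was quantified in the same way, so in its values the treatment and the quantification cannot be told apart. Of 10 colon epithelial markers 9 reached a mean of 1 FPKM, with CDX2 below it, and the list summed to 7461 and 16550 FPKM in the treated libraries and to 7358 and 7756 FPKM in the untreated ones. Of 12 markers of fibroblasts, leukocytes and endothelium, only CD68 and LYZ reached a mean of 1 FPKM. LYZ is also made by intestinal epithelium, and it accounted for most of the list's sum of 1635 and 1778 FPKM treated and 1845 and 1703 FPKM untreated. COL1A2, COL3A1, DCN and CD3E were listed at 0 in all 4 libraries.

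Ribosomal protein mRNAs were among the most abundant in HT29 cells, and in fluorouracil replicate 1 they were listed at nearly their untreated level. In fluorouracil replicate 2 most of them were listed at least 2-fold higher. Of the 81 genes, 78 reached a mean of 1 FPKM across the libraries and were tested, 46 of the large subunit and 32 of the small. Their median was 946 FPKM in fluorouracil replicate 1, with 2344 FPKM in replicate 2, against 975 and 902 FPKM in the untreated libraries. Summed over the family, they held 17.9% and 27.0% of all FPKM in the treated libraries, against 18.9% and 17.7% in the untreated ones. The first treated share thus lay within the untreated pair and the second far above it. In such bulk samples, a change in the number of cells of a type and a change in RNA per cell cannot be told apart. Members accounted for 38.2% of the FPKM by which fluorouracil replicate 2 exceeded the untreated mean over all rows.

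**Figure D1:**
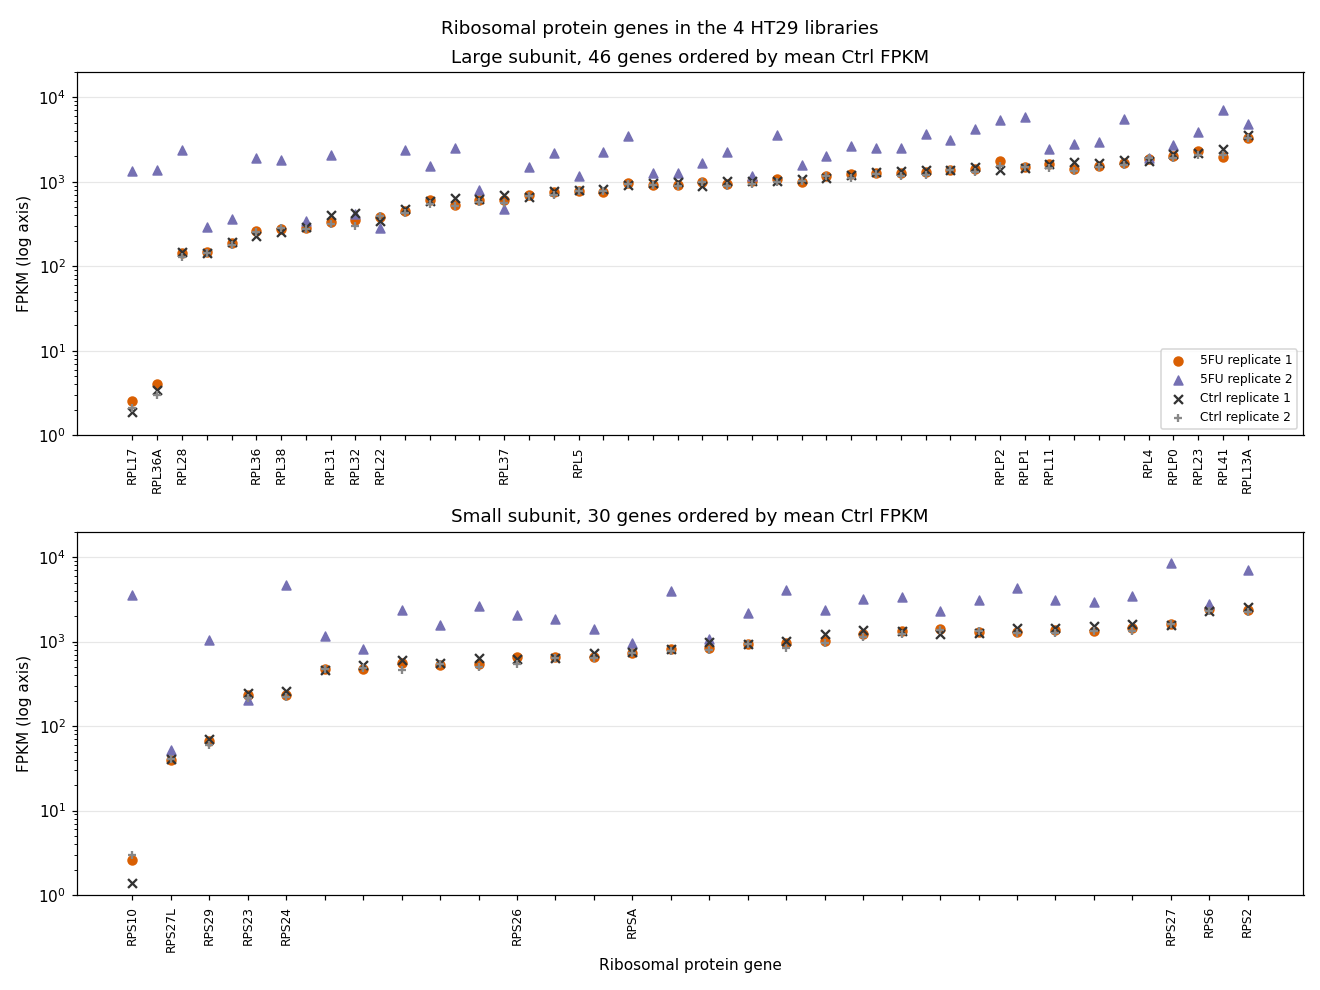
FPKM on a log axis of 76 of the 78 tested ribosomal protein genes in each library, with names for genes the text describes, ordered by mean untreated FPKM, with the large subunit in the upper and the small subunit in the lower panel. Each symbol is 1 library. The circles of 5FU replicate 1 lie on the untreated crosses, while the triangles of 5FU replicate 2 lie above the other 3 libraries for most genes and furthest above them for RPL17, RPL36A and RPS10.

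No ribosomal protein gene passed the test of fluorouracil against untreated cells, in either direction. The test was limma on log2(FPKM + 0.1), two-sided, with Benjamini-Hochberg adjustment over all 12462 genes tested. It called 0% of all genes, and adjusted p over the 78 members ran from 0.671 to 0.950. None of the 78 had an unadjusted p below 0.05, against 2.2% of all tested genes with higher and 1.01% with lower treated values. Treated values were both higher than the untreated pair in 21 members (26.9%), close to the 24.4% of all tested genes. They were both lower in 0 members, where the share over all tested genes was 19.3%. Fluorouracil replicate 2 was the highest library in 73 members and the lowest in 3, so these counts turn largely on fluorouracil replicate 1. With no filter on low values, 0 of the 81 members and 0.245% of all genes were called. For a single gene, an exact permutation test of 2 libraries against 2 cannot give a two-sided p below 0.333.

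In fluorouracil replicate 1 the family matched untreated cells closely. The median difference in log2(FPKM + 0.1) from the untreated mean was 0.0072 over the 78 members and 0.0076 over all tested genes. A difference within 0.2 was seen in 74 members (94.9%), against 53.5% of all tested genes, and 0 members were 2-fold higher or lower, where the shares over all tested genes were 3.32% and 1.56%. The value lay between the 2 untreated values in 46 members (59.0%), against 24.5% of all tested genes. It lay above both in 21 members and below both in 11. The median absolute difference of fluorouracil replicate 1 was 0.087 from untreated replicate 1 and 0.070 from untreated replicate 2, while the untreated libraries differed from each other by 0.15. For all tested genes these medians were 0.21, 0.19 and 0.14. Thus for ribosomal protein genes the treated library lay nearer to each untreated library than those lay to each other, and for genes at large it lay further away. Untreated replicate 1 was above untreated replicate 2 in 58 of the 78 members, at a median difference of 0.11 (-0.0020 over all tested genes). Genes at large were not matched to the family for abundance. The median absolute difference of fluorouracil replicate 1 from the untreated mean was 0.054 over members and 0.18 over all tested genes. It was 0.065 for 9 colon epithelial markers, 0.084 for 20 other TOP mRNAs and 0.17 for 7 ribosomal protein chaperones.

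The 4 members with a difference beyond 0.2 in that library were RPLP2 and the 3 weakly listed genes RPS10, RPL17 and RPL36A. RPLP2, an acidic P protein of the stalk that recruits elongation factors, measured 1766 and 5438 FPKM in the treated libraries and 1386 and 1554 FPKM in the untreated ones. Both treated values were above both untreated values, at log2 differences of 0.27 and 1.89 in replicates 1 and 2 (limma log2 change 1.08, SE 0.65, adjusted p = 0.671). Next came RPS26, a small subunit protein at the mRNA exit channel, at 659 and 2047 FPKM treated and 624 and 542 FPKM untreated, likewise without overlap. RPL41, the smallest ribosomal protein, showed the most negative difference in fluorouracil replicate 1, at -0.18. It measured 1977 FPKM there and 7086 FPKM in fluorouracil replicate 2, against 2436 and 2049 FPKM in the untreated libraries. Its treated values therefore lay on either side of the untreated pair.

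In fluorouracil replicate 2, 51 members (65.4%) were at least 2-fold higher than the untreated mean, against 26.4% of all tested genes. Their median log2 difference was 1.24, beside 0.19 over all tested genes. Of the 51, 16 were at least 4-fold higher. The value exceeded the other 3 libraries in 73 members (93.6%), against 49.2% of all tested genes. It was the lowest of the 4 in 3 members, RPL22, RPL37 and RPS23, against 38.9% of all tested genes. RPL4 and RPL32 lay between the others. No member was 2-fold lower, where the share over all tested genes was 16.5%. After quantile normalization the family median in that library was 0.082, with 45 members above 0 and 33 below. A limma fit without fluorouracil replicate 2 called 0 of the 78 members (0.144% of all genes), and one without fluorouracil replicate 1 called 63, all higher (66.9% of all genes). Each of these fits gives the single treated library the spread of the untreated pair.

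**Figure D2:**
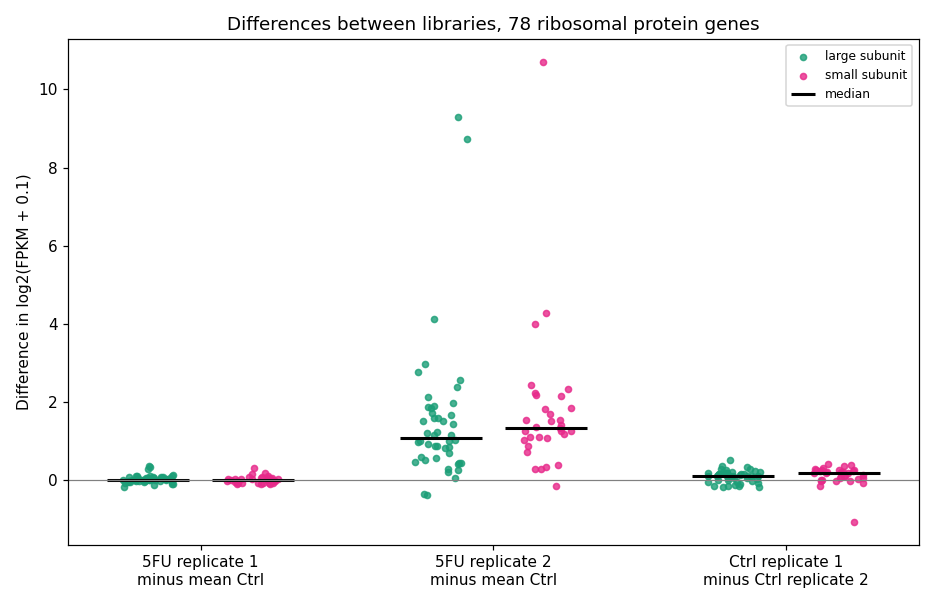
Difference in log2(FPKM + 0.1) for each of the 78 tested genes in 3 pairings of libraries, with the large subunit (green) left of the small subunit (pink) and bars at the medians. Points of 5FU replicate 1 gather at 0, within the scatter between the untreated libraries, and those of 5FU replicate 2 centre at 1.08 and 1.34 with 3 genes above 8.

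Large and small subunit genes had similar medians in fluorouracil replicate 1, and the small subunit median was the higher in replicate 2. The median log2 difference in replicate 1 was 0.0072 for the 46 large subunit genes and -0.0022 for the 32 small subunit genes. In replicate 2 it was 1.08 (quartiles 0.57 and 1.82) for the large subunit and 1.34 (quartiles 1.06 and 1.91) for the small subunit. Values at least 2-fold higher were listed for 26 of 46 large and 25 of 32 small subunit genes, or 56.5% and 78.1%. The quartile ranges overlapped, and no p was computed over the members because they do not replicate the treatment. The ratio of summed FPKM, large over small, was 1.40 and 1.14 in the treated libraries and 1.37 and 1.41 in the untreated ones. The lower ratio was thus seen in fluorouracil replicate 2 alone. After correction for GC content and transcript length, the large subunit median minus the small subunit median in that library was -0.13, beside -0.26 as deposited.

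Values of the P stalk genes differed within fluorouracil replicate 2. RPLP0, the scaffold that ties the stalk to the ribosome, measured 2014 and 2703 FPKM in the treated libraries and 2117 and 1899 FPKM in the untreated ones. RPLP1, the partner of RPLP2, had 1501 and 5847 FPKM treated and 1470 and 1517 FPKM untreated. In fluorouracil replicate 2 the log2 difference was 0.43 for RPLP0, 1.97 for RPLP1 and 1.89 for RPLP2. Only RPLP2 had both treated values above both untreated ones.

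RPL5 and RPL11, the proteins that bind 5S ribosomal RNA and can inhibit MDM2, differed little from untreated cells in fluorouracil replicate 1. RPL5 measured 787 and 1175 FPKM in the treated libraries and 800.3 and 769 FPKM in the untreated ones, so the first treated value lay within the untreated pair. RPL11 measured 1619.8 and 2457 FPKM treated and 1608 and 1448 FPKM untreated. Its first treated value was above the untreated pair by a margin far smaller than the distance between the untreated libraries. Of 4 genes fixed as readers of free ribosomal proteins, none passed the test. MDM2 had 6.35 and 5.01 FPKM treated and 5.89 and 7.35 FPKM untreated, so its values overlapped. MDM4, a relative of MDM2, also overlapped. CDKN1A, a cell cycle inhibitor, was at 29.4 and 66.1 FPKM treated and 14.1 and 10.9 FPKM untreated (limma unadjusted p = 0.019, adjusted p = 0.671).

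Among the most abundant small subunit genes in untreated cells were RPS2 and RPS6. RPS2, which lies at the mRNA entry site, had 2338 and 6996 FPKM treated and 2597 and 2213 FPKM untreated. RPS6, the substrate of the S6 kinases downstream of mTORC1, had 2415 and 2781 FPKM treated and 2276 and 2300 FPKM untreated. Its treated values did not overlap with the untreated ones, yet the log2 differences were only 0.08 and 0.28 (limma adjusted p = 0.794). RPSA, which is known both as a small subunit protein and as a laminin receptor, had 727 and 966 FPKM treated and 762 and 731 FPKM untreated. In fluorouracil replicate 1, RPS2 lay within and RPSA just below the untreated pair.

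Among large subunit genes, RPL13A, RPL41, RPL23 and RPLP0 were the most abundant in untreated cells. RPL13A, which has also been described as a regulator of inflammatory mRNAs outside the ribosome, had 3285 and 4861 FPKM in the treated libraries and 3543 and 3307 FPKM in the untreated ones. RPL23, which sits near the factor binding region and can also bind MDM2, had 2301 and 3901 FPKM treated and 2216 and 2069.5 FPKM untreated, without overlap. After quantile normalization the fitted log2 changes of RPL5, RPL11, RPL13A, RPL23, RPLP0, RPS6, RPSA and RPS27L were negative, where as deposited they were positive. The order of abundance was nearly the same in fluorouracil replicate 1 as in untreated cells (Spearman's rho of 0.995 across the 78 genes, against 0.985 between the untreated libraries). For fluorouracil replicate 2 it was 0.688. These are descriptions across genes, which share their libraries and are not independent replicates.

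The reordering in fluorouracil replicate 2 brought other members to the top. RPS27, a small zinc finger protein, was the highest of all there at 8563 FPKM, against 1615 FPKM in fluorouracil replicate 1 and 1574 and 1597 FPKM in the untreated libraries. RPS24, mutated in some cases of Diamond-Blackfan anaemia, had 235 and 4637 FPKM in the treated libraries and 261 and 221 FPKM in the untreated ones, and it ranked 10th of the family in replicate 2 and 67th in untreated replicate 1. RPL28, a large subunit protein, had 145 and 2406 FPKM treated and 146 and 130 FPKM untreated. RPS29, a zinc finger protein of the subunit head, had 67.4 and 1039.7 FPKM treated and 70.2 and 60.1 FPKM untreated. The log2 differences of RPS24, RPL28 and RPS29 in replicate 2 were 4.27, 4.13 and 3.998, while in replicate 1 they lay between -0.03 and 0.08. RPL36, RPL38 and RPL31, all short large subunit proteins, followed at 2.97, 2.76 and 2.55 in replicate 2 and at 0.12, 0.05 and -0.10 in replicate 1. Each of these genes was thus high in 1 treated library alone.

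For 3 members, fluorouracil replicate 2 and the other 3 libraries differed by far more. RPS10 was at 2.57 and 3596 FPKM in the treated libraries and at 1.39 and 3.02 FPKM in the untreated ones. RPL17 was at 2.55 and 1325 FPKM treated and 1.91 and 2.11 FPKM untreated, and RPL36A was at 4.10 and 1391 FPKM treated and 3.43 and 2.99 FPKM untreated. Each encodes a core ribosomal protein, and their values in 3 libraries lie far below those of every other tested member, the lowest of which was RPS27L at 39.2 FPKM. A limma fit with a block for the replicate number called these 3 and no other member, beside 2.72% of all genes, although each was high in fluorouracil replicate 2 alone.

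These 3 are also the only members that form part of a readthrough row of the table, a separate row for transcripts that join neighbouring genes. GENCODE 29 places RPS10 at chr6:34417454-34426125 on the minus strand, RPL17 at chr18:49488453-49492523 on the minus strand and RPL36A at chrX:101390824-101396154 on the plus strand (GRCh38). The rows RPS10-NUDT3, RPL17-C18orf32 and RPL36A-HNRNPH2 were listed at 0.172, 1.45 and 36.7 FPKM in fluorouracil replicate 2 and at 0 in the other 3 libraries. Over the whole table, 151 tested genes were named in a readthrough row, and 44.4% of them were at least 16-fold higher in fluorouracil replicate 2, against 1.07% of all tested genes. Their median log2 difference was 3.30 in that library and 0 in fluorouracil replicate 1. A gene was tested if its mean over all libraries reached 1 FPKM, so some of these genes entered through fluorouracil replicate 2 alone. The 44.4% and the 3.30 thus depend in part on that library's own values. Genes at 0 in fluorouracil replicate 1 and in both untreated libraries have a difference of 0 there by construction. Examples outside the family, chosen after their values were seen, were NME2 at 0.625 and 1639 FPKM treated and 1.27 and 1.31 FPKM untreated, and EIF4A1 at 0 and 513 FPKM treated and 0 in both untreated libraries. The part of these overlaps in the values was not tested.

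Across the family, the higher values of fluorouracil replicate 2 went with short annotated transcripts. Length was taken as that of the shortest principal protein-coding transcript in GENCODE 29, known for all 78 members, with a median of 707 bases and a range from 296 to 7686. Spearman's rho between length and the log2 difference was -0.60 for fluorouracil replicate 2 and 0.04 for fluorouracil replicate 1, and -0.43 and -0.05 across 10510 tested genes with a length. The 22 members under 600 bases had a median log2 difference of 1.98 in replicate 2 and 0.00088 in replicate 1. For the 35 members from 600 to 1000 bases these were 1.17 and 0.0085, and for the 21 longer members 0.46 and 0.0075. Values at least 2-fold higher in replicate 2 were listed for 21 of the 22 shortest, 26 of the 35 intermediate and 4 of the 21 longest members. RPL37, RPL22 and RPS23, the 3 members for which replicate 2 was the lowest library, all belonged to the longest class. Their annotated lengths were 7686, 2078 and 3437 bases. Whether transcripts of these lengths were the ones present in the cells was not tested. The length classes and the length correction rest on the annotation. The points share their libraries and length model, and the part of length in the values was not tested.

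**Figure D3:**
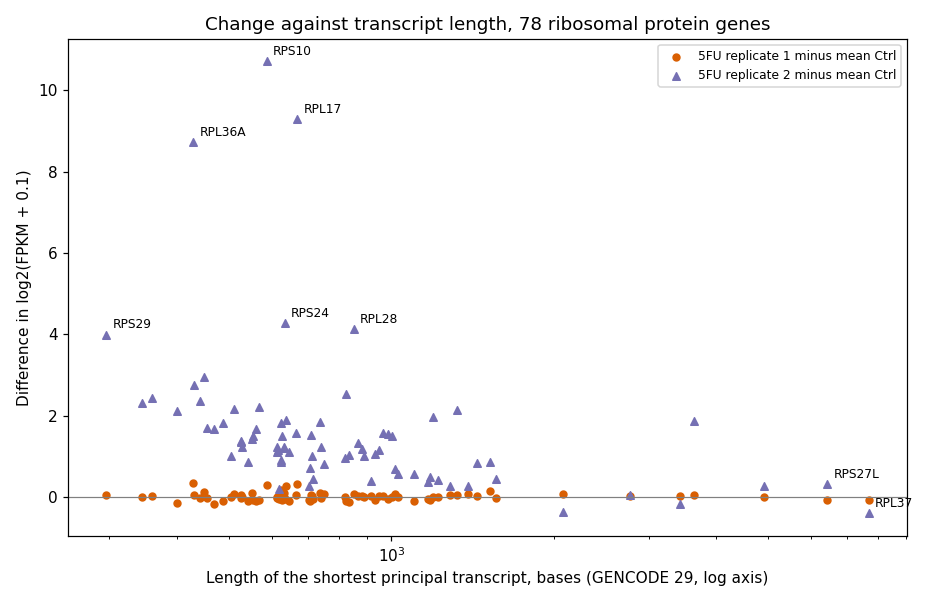
Difference in log2(FPKM + 0.1) from the untreated mean against annotated transcript length in bases (log axis) for the 78 tested genes. Circles are 5FU replicate 1 and triangles 5FU replicate 2. The triangles fall towards longer transcripts, from a median of 1.98 under 600 bases to 0.46 at 1000 bases and above, and the circles stay near 0 at every length.

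The values of RPL37, RPL22 and RPS23 were close to those of untreated cells in fluorouracil replicate 1. In fluorouracil replicate 2 they were lower, at log2 differences of -0.39, -0.35 and -0.16. RPL22, which also binds viral RNAs, had 386 and 288 FPKM treated and 346 and 390 FPKM untreated. RPL37 had 601 and 479 FPKM treated and 695 and 569 FPKM untreated, and RPS23, a protein of the decoding centre, had 233 and 205 FPKM treated and 246 and 216 FPKM untreated. In fluorouracil replicate 1 each lay between the untreated values. After correction for GC content and transcript length, the family median in fluorouracil replicate 2 was 0.11, with 44 members above 0 and 34 below. In that form 12 members stayed at least 2-fold higher, among them RPS10, RPL17, RPL36A, RPS24, RPL28 and RPS29, and RPL32 was 2-fold lower.

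Members with the start tract had a higher median in fluorouracil replicate 2 than members without it, as a description without a test. The median log2 difference was 0.0080 in fluorouracil replicate 1 and 1.36 in replicate 2 for the 46 members with the tract, all of them tested. For the 17 tested members without it at an annotated RefSeq start it was 0.043 and 0.97. Values at least 2-fold higher in replicate 2 were listed for 34 of the 46 and for 8 of the 17. The median transcript length was 641.5 bases with the tract and 737 bases without it. The part of length in this difference was not tested. Members without the tract ranged from 0.049 to 9.30 in replicate 2, with RPL17 and RPS29 among the highest differences. RPS27L, which also lacks the tract at its annotated start, had the lowest FPKM of the tested members in fluorouracil replicate 2. It measured 39.2 and 51.5 FPKM treated and 41.0 and 41.1 FPKM untreated, so the treated values lay on either side of the untreated pair. Its log2 difference in replicate 2 was 0.33. The paralogues RPL3L, RPL10L and RPL39L, which are known from striated muscle or testis, were not tested. RPL10L and RPL39L were listed at 0 in all libraries, and RPL3L at 0.071 FPKM in fluorouracil replicate 2 and at 0 in the other 3.

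Most ribosomal proteins and paralogues outside the naming rule were at least 2-fold higher in fluorouracil replicate 2. Of 7 such genes all were tested and 0 passed, and their median log2 difference was 0.02 in fluorouracil replicate 1 and 1.31 in replicate 2, with 6 of them at least 2-fold higher there. The other, RPL7L1, a paralogue of RPL7 named after its values were seen, had 55.5 and 52.7 FPKM treated and 62.9 and 57.8 FPKM untreated, below the untreated pair in both libraries. FAU, which encodes a ribosomal protein fused to a ubiquitin-like protein, had 540 and 1494 FPKM treated and 490.0 and 479 FPKM untreated. RPL36AL, the close paralogue of RPL36A, had 223 and 529 FPKM treated and 207 and 219 FPKM untreated, on one scale in all libraries, unlike RPL36A. RPL22L1, the paralogue of RPL22, had 15.6 and 46.4 FPKM treated and 16.2 and 15.3 FPKM untreated. FAU, RPL36AL and RPL22L1 were near the untreated values in replicate 1 and 2-fold or more above them in replicate 2.

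Other TOP mRNAs of the translation machinery had medians near those of all tested genes. Of 20 genes 0 passed, 8 had higher values in both treated libraries, 3 had lower values and 9 overlapped, where 24.4% of all tested genes were higher and 19.3% lower in this way. Their median log2 difference was 0.03 in replicate 1 and 0.20 in replicate 2. EEF1A1, the elongation factor that delivers aminoacyl-tRNA and a gene chosen after its values were seen, had 4717 and 2483 FPKM treated and 5046 and 4946 FPKM untreated. EIF4A2, a helicase of the initiation complex, had 191 and 92.1 FPKM treated and 236 and 218 FPKM untreated. In the opposite direction, NACA, a nascent chain binding protein, had 88.9 and 819 FPKM treated and 88.1 and 85.2 FPKM untreated, and EEF1D, an exchange factor of EEF1A1, had 112 and 755 FPKM treated and 98.1 and 107 FPKM untreated. EIF3F, a subunit of initiation factor eIF3, had 170.1 and 332 FPKM treated and 145 and 154 FPKM untreated. The median transcript length of this list was 2007 bases, against 707 for the ribosomal protein genes.

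Genes that control TOP mRNAs or escort ribosomal proteins also gave no call. Of 11 genes of mTORC1 and the control of TOP mRNAs 0 passed, 10 overlapped, and LARP1, the repressor that binds the TOP tract, had lower values in both treated libraries. LARP1 measured 35.1 and 29.6 FPKM treated and 42.6 and 47.4 FPKM untreated (limma log2 change -0.48, SE 0.29, adjusted p = 0.671). Of 7 chaperones and import factors of ribosomal proteins, 3 had lower and 2 had higher values in both treated libraries, beside 19.3% and 24.4% of all tested genes. With so few genes, these counts are read as a description of single genes. The lower ones were HEATR3, which imports RPL5, LTV1, which acts with RPS3 in small subunit assembly, and GRWD1, a partner of RPL3. HEATR3 had 10.5 and 6.30 FPKM treated and 13.5 and 13.1 FPKM untreated, LTV1 had 34.2 and 18.8 FPKM treated and 40.7 and 44.1 FPKM untreated, and GRWD1 had 29.4 and 38.8 FPKM treated and 45.3 and 42.9 FPKM untreated. TSR2, the escort of RPS26, was the third smallest in p among the 7 and was higher, at 32.9 and 57.8 FPKM treated and 26.8 and 32.8 FPKM untreated. For all 7 the unadjusted limma p was above 0.05.

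Subunits of other multiprotein machines are shown for comparison. The 76 mitochondrial ribosomal protein genes had a median log2 difference of -0.06 in fluorouracil replicate 1 and 0.68 in replicate 2, with 27 of them at least 2-fold higher in replicate 2. The 54 tested subunits of the respiratory chain, whose mRNAs had a median length of 782 bases, had medians of 0.06 and 1.32, with 35 at least 2-fold higher in replicate 2. MRPS30 of the mitochondrial ribosome had 31.4 and 24.8 FPKM treated and 41.3 and 39.98 FPKM untreated, and MRPL41 had 53.0 and 197 FPKM treated and 46.7 and 38.1 FPKM untreated. NDUFB8, a subunit of complex I, had 75.8 and 257 FPKM treated and 60.5 and 66.1 FPKM untreated. None of these genes passed the test. The respiratory chain list thus stood as high in fluorouracil replicate 2 as the cytosolic ribosomal protein genes did.

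**Figure D4:**
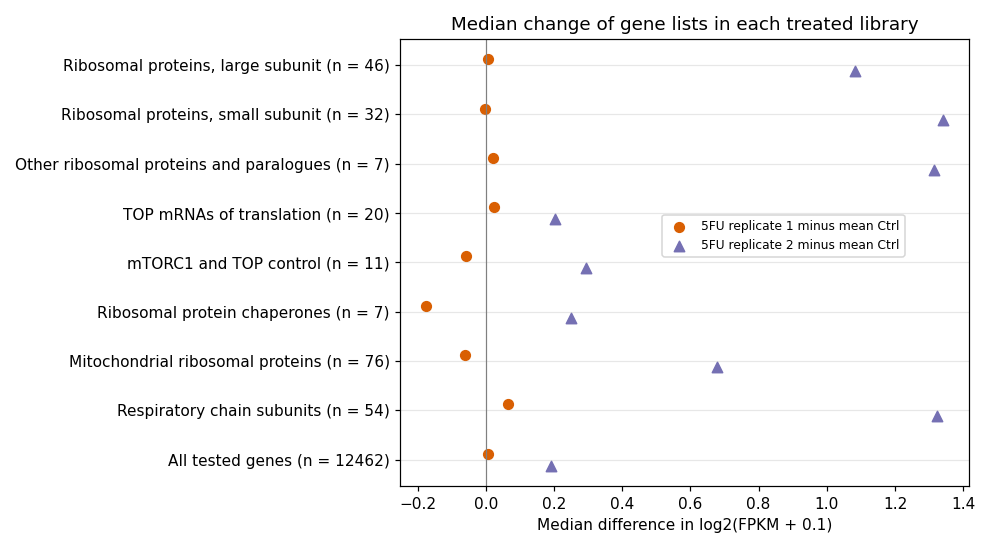
Median difference in log2(FPKM + 0.1) from the untreated mean for 8 gene lists and all tested genes, as circles for 5FU replicate 1 and triangles for 5FU replicate 2. In 5FU replicate 2 both ribosomal subunits, the other ribosomal proteins and the respiratory chain lie above 1, while TOP mRNAs of translation lie at 0.20, near all tested genes at 0.19.

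Reads of ribosomal protein genes are hard to place, because these genes have many processed copies in the genome. GENCODE 29 names 1133 pseudogenes after 76 of the 81 members, up to 91 for RPL23A, and the sources used here do not say how reads were shared with them. The table held 30 pseudogene rows of the family, of which 15 reached a mean of 1 FPKM. All 30 summed to 88.1 and 63.6 FPKM in the treated libraries and to 66.2 and 75.8 FPKM in the untreated ones, a small amount beside the family. Fluorouracil replicate 2, where most members were highest, had the lowest of these sums. RPL13AP20 had 1.07 and 4.22 FPKM treated and 0.326 and 0.206 FPKM untreated, while RPL13AP5 had 6.33 and 0.386 FPKM treated and 6.87 and 7.97 FPKM untreated. The table also held 15 rows for further loci of members, all listed at 0 in every library. Single values of members with many copies are therefore uncertain.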

How the data were processed

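The authors deposited 1 table of FPKM values, 1 column for each of the 4 libraries. Per the submitters' processing notes the tools were TopHat2 2.1.0 and Cufflinks 2.2.1 and the builds hg38 and mm10. Their roles, the annotation and the library scaling are not stated. Since FPKM depends on a length model and a library total, a different choice of either moves many genes at once.

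Of 33117 rows, 28 with a date-like number as symbol were left out. Values were taken as log2(FPKM + 0.1), and 12462 genes averaging 1 FPKM or more were fitted with limma 3.58.1 in R 4.3.3 (trended prior variance, 2 residual degrees of freedom, Benjamini-Hochberg adjustment, threshold 0.05), a step tested on simulated data. Fold changes understate weakly expressed genes. The treated libraries were also each set against the untreated mean, without a test. Alternatives were other pseudocounts and filters, quantile normalization, median centring, correction for GC content and transcript length (loess per library, span 0.3, 10510 genes), a replicate block and omission of each library. Members and lists were chosen with earlier results of these data known. Named members are those fixed by name, the 4 most abundant per subunit, those below 50 FPKM in untreated cells, and those with the largest changes per treated library (10 in replicate 2, 6 in replicate 1). Members 1.5-fold apart from the untreated mean on the same side in both treated libraries, and members that passed the test, were also to be named, and there were none. From each other list the 4 genes with the smallest unadjusted p could be named. RPL4, RPL22, RPL32, RPL37, RPS23, RPL7L1 and EEF1A1 were named after their values were seen. Some genes that the rule names are not reported here. Lengths and positions are from GENCODE 29, start sites from RefSeq.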

Additional observations from a re-analysis of the deposited data

How the results depend on the processing

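The count of 0 ribosomal protein genes called by limma was the same with pseudocounts of 1 and 0.01, without a filter, with a minimum mean of 5 FPKM, after quantile normalization, median centring and correction for GC content and length, and without either untreated library. Leaving out each library gave 0 to 63 called members and 0 to 8337 called genes in all, the highest without fluorouracil replicate 1 and 18 genes without fluorouracil replicate 2. With no filter 81 genes of all rows were called, none of them a member. With either pseudocount and with the minimum mean of 5 FPKM, 0 of all genes were called too. The same held after quantile normalization, median centring and the GC and length correction. These settings keep both treated libraries, and the unchanged 0 is not particular to the family. With the replicate block 3 members and 339 genes were called. The replicate numbers are not stated to mark a shared culture, so the block was not used to judge members. Between same-numbered libraries, deviations from the group means correlated at -0.05 over all tested genes and at 0.38 over the members. Among members RPS10 had the largest log2 difference between the untreated libraries (-1.07), at 1.39 and 3.02 FPKM. Its treated values, 2.57 and 3596 FPKM, were also the furthest apart. The correlation without RPS10 was not computed. Whether same-numbered libraries shared a culture was not tested.

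The median of fluorouracil replicate 2, 1.24 as deposited, was 0.082 after quantile normalization, 1.16 after median centring and 0.11 after the GC and length correction. The median of all tested genes in that library was 0.19 as deposited, 0.02 after quantile normalization and -0.04 after the correction. The large minus small subunit difference in that library, -0.26 as deposited, was -0.33 with no filter, -0.18 after quantile normalization and -0.13 after the GC and length correction. Without RPS10, RPL17 and RPL36A, an omission chosen after seeing the data, the median was 1.21. The family median of fluorouracil replicate 1 lay within 0.07 of 0 under every alternative run (-0.069 to 0.064), and leaving out each untreated library gave -0.065 and 0.064. Each library's share of summed FPKM, taken over the tested genes alone, moved by less than the SD between the untreated libraries (0.814 percentage points).

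Of 276 values of 23 named genes under the alternatives, 233 kept their direction and side of the threshold, 22 kept their direction and passed the threshold (only without fluorouracil replicate 1 or with the replicate block), and 21 changed sign. After quantile normalization the log2 change was -0.16 for RPL11, -0.43 for RPL13A, -0.22 for RPL23, -0.34 for RPL5, -0.33 for RPLP0, -0.11 for RPS27L, -0.44 for RPS6 and -0.45 for RPSA. After the GC and length correction it was -0.34 for RPL13A, -0.045 for RPL23, -0.065 for RPL41, -0.32 for RPLP0, -0.0090 for RPS2 and -0.22 for RPSA. Leaving out each library gave -0.059 to 0.51 for RPL13A, -0.099 to 2.55 for RPL31, -0.18 to 1.67 for RPL41, -0.036 to 1.54 for RPS2, -0.031 to 4.27 for RPS24, -0.068 to 0.33 for RPS27L and -0.037 to 0.37 for RPSA, lowest without fluorouracil replicate 2 and highest without fluorouracil replicate 1. The cause was not tested. With unknown fragment numbers, what depth limits cannot be stated.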
